A study of Pleurotus tuoliensis with 9 samples.

Results

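The family 7 exoglucanases described here are 3 of the 13953 unigenes counted in *Pleurotus tuoliensis* mycelia, namely gene_26401, gene_26402 and gene_15410. They were chosen on their values in the comparisons between temperatures, so those values are given as a description and are not tested. The neighbours in ID number gene_26401 and gene_26402 are described as Exoglucanase 1, while gene_15410 is described only as a glycoside hydrolase of family 7. That family also holds endoglucanases, so a description by family alone does not fix the role of gene_15410 or of the others described that way. All 3 had a nonzero count in every library. They stand beside 14 other unigenes of families 7 and 6, listed here as exoglucanases, of which 8 are described as Exoglucanase 1 or cellobiohydrolase II and 6 only as family 7 proteins. Of the 17, 15 belong to family 7 and 2 to family 6. The 17 unigenes match only 11 proteins, so some of them may be pieces of 1 gene.

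White-rot fungi such as *Pleurotus* feed on wood and straw, whose main polymer is cellulose, a crystalline chain of glucose units. Exoglucanases, or cellobiohydrolases, hold the end of a chain in a tunnel of the enzyme and move along it, releasing the disaccharide cellobiose at each step. Family 7 enzymes start at the reducing end and family 6 enzymes at the other end. Endoglucanases cut within the chain and make new ends, lytic polysaccharide monooxygenases open it by oxidation, and beta-glucosidases split cellobiose to glucose. In fungi, genes for such enzymes are commonly induced by breakdown products of cellulose and repressed by glucose.

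RNA was sequenced from mycelia of the strain Zhongnong No.1 grown in the dark on potato dextrose agar, a glucose medium. All plates were kept at 25 °C for 9 days, after which CK plates stayed at 25 °C, MHT plates went to 32 °C and SHT plates to 36 °C for another 96 h, and all were sampled on day 13. Each group had 3 libraries from individual plates, all inoculated from the same initial plate, so the spread is that between cultures of 1 strain. The libraries held 3925786 to 6180053 counts, and replicates of a group differed by more than sampling noise (chi-square per degree of freedom 9.23 to 37.4).

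Levels are given as counts per 1000000 counts of a library after TMM scaling (CPM). A unigene counts as a DEG, or as called, when edgeR's quasi-likelihood test gave it an adjusted p under 0.05 together with an absolute log2 fold change above 1. In MHT&CK, 3.85% of the 13018 unigenes tested were DEGs with the higher level in MHT and 4.32% with the lower. In SHT&CK, 10.8% were higher in SHT and 10.9% lower, and in SHT&MHT 2.79% were higher in SHT and 2.87% lower. When the libraries were scaled by their totals alone, the numbers of higher and lower DEGs were 2284 and 850 in SHT&CK, against 1408 and 1413, and the median log2 fold change of all unigenes was 0.28. The numbers were then 746 and 419 in MHT&CK, against 501 and 562, and 595 and 286 in SHT&MHT, against 363 and 373. Each pair of comparisons shares the libraries of 1 group. The RNA came from whole mycelium, in which fewer cells of a type and less RNA per cell cannot be told apart.

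Gene_26401 was close to the lower limit of counting at 25 °C and was counted far more often at both higher temperatures. The CK libraries held 2, 4 and 3 counts of gene_26401, the MHT libraries 75, 138 and 37, and the SHT libraries 136, 120 and 71. In CPM, gene_26401 was at 0.586, 0.847 and 0.655 in CK, 12.4, 24.9 and 7.43 in MHT, and 20.9, 22.7 and 13.1 in SHT. Every heated library was thus above every CK library, MHT replicate 3 was the lowest of the heated libraries and MHT replicate 2 the highest, and the ranges of MHT and SHT overlapped. The means were 0.696 ± 0.136, 14.9 ± 9.00 and 18.9 ± 5.08 CPM (SD, n = 3). The fitted log2 fold change of gene_26401 was 4.36 (standard error, SE, 0.56) in MHT&CK, 4.70 (0.55) in SHT&CK and 0.34 (0.36) in SHT&MHT. Among the 13018 unigenes ordered from the highest log2 fold change down, it stood at place 5 in MHT&CK and place 8 in SHT&CK, but at place 3301 in SHT&MHT.

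The few CK counts limit how well the size of the difference in gene_26401 is known. Summed over libraries and scaled by library size, the 250 counts of MHT against 9 of CK gave a ratio of 21.3 (95% exact binomial interval 11.0 to 47.1), and the 327 counts of SHT gave 26.9 (14.0 to 59.3). These intervals cover counting error only. In MHT&CK the log2 fold change became 3.77 without MHT replicate 2, the library with most counts of gene_26401 in its group, and 3.77 to 4.67 over all libraries left out in turn. In SHT&MHT it was 0.92 without MHT replicate 2 and 0.03 without MHT replicate 3.

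Gene_26402 was low at 25 °C, higher at 32 °C and highest at 36 °C. Its counts were 12, 14 and 8 in CK, 105, 174 and 132 in MHT, and 268, 303 and 192 in SHT. In CPM, gene_26402 was at 3.52, 2.97 and 1.75 in CK, 17.3, 31.4 and 26.5 in MHT, and 41.1, 57.4 and 35.5 in SHT. No library of gene_26402 overlapped with one of another group. The means were 2.74 ± 0.905, 25.1 ± 7.14 and 44.7 ± 11.4 CPM (SD, n = 3). Its log2 fold change was 3.20 (standard error 0.34) in MHT&CK, 4.04 (0.34) in SHT&CK and 0.83 (0.26) in SHT&MHT, at places 19, 18 and 978 among all unigenes. For gene_26402 the step from MHT to SHT was smaller than either difference from CK. With each library left out in turn, these values ranged from 2.95 to 3.41, from 3.79 to 4.23 and from 0.61 to 1.03. The ratio of summed counts was 9.27 (95% exact binomial interval 6.53 to 13.6) in MHT&CK, 16.6 (11.8 to 24.1) in SHT&CK and 1.79 (1.59 to 2.02) in SHT&MHT. Here, too, the intervals cover counting error only and leave out the spread between cultures.

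Gene_26401 and gene_26402 have the same protein as their best match, so they may be pieces of 1 gene or closely related copies between which reads could be divided. Their relative counts varied between libraries. Per count of gene_26402 there were 0.167, 0.286 and 0.375 counts of gene_26401 in CK, 0.714, 0.793 and 0.280 in MHT, and 0.507, 0.396 and 0.370 in SHT. MHT replicates 1 and 2 had the highest ratios, while MHT replicate 3 lay within the range of CK. When the counts of both were summed before the fit, the log2 fold change of the sum was 3.55 in MHT&CK, 4.21 in SHT&CK and 0.67 in SHT&MHT. The summed value lay nearer to gene_26402, which holds most of the counts. The pair together was far above CK at both temperatures.

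**Figure D1:**
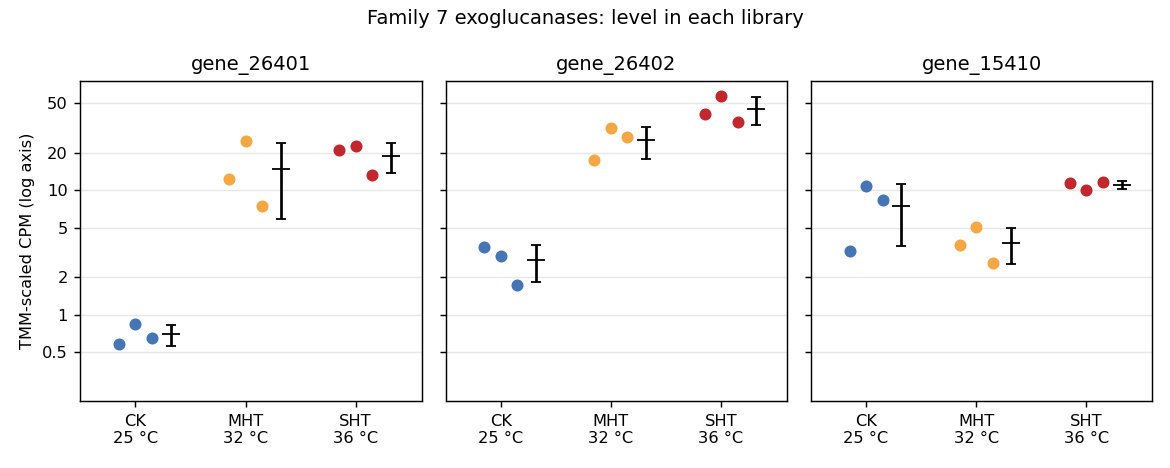
TMM-scaled CPM of gene_26401, gene_26402 and gene_15410 (log axis) in each library of CK, MHT and SHT, with points for libraries and a bar with whiskers for the mean ± SD of 3 libraries. The neighbours lie below 4 CPM in every CK library and above 7 CPM in every heated library, while the CK points of gene_15410 span from 3.22 to 10.8.

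Gene_15410 had another pattern, with its lowest mean at 32 °C. Its counts were 11, 51 and 38 in CK, 22, 28 and 13 in MHT, and 74, 53 and 63 in SHT. In CPM, gene_15410 was at 3.22, 10.8 and 8.30 in CK, 3.63, 5.05 and 2.61 in MHT, and 11.4, 10.0 and 11.7 in SHT. The SHT libraries lay close together and above all MHT libraries, while CK overlapped with both groups because CK replicate 1 was at the level of MHT and CK replicate 2 at that of SHT. The means were 7.44 ± 3.86, 3.76 ± 1.22 and 11.0 ± 0.861 CPM (SD, n = 3). Its log2 fold change was -1.003 (standard error 0.39) in MHT&CK, 0.53 (0.36) in SHT&CK and 1.54 (0.37) in SHT&MHT, at places 12293, 3371 and 211 among all unigenes. CK replicate 1 also had the lowest total count of the 9 libraries. Without it, the first 2 values were -1.31 and 0.20, and without CK replicate 2 they were -0.64 and 0.89. In SHT&MHT its value ranged from 1.34 to 1.80 with each library left out in turn.

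Gene_15410 shares its best protein match with gene_15414, another family 7 unigene a few ID numbers away, which the choice of members did not take in. Gene_15414 was at 12.6, 13.1 and 10.5 CPM in CK, 9.74, 7.03 and 7.63 in MHT, and 18.4, 10.6 and 11.5 in SHT. All MHT libraries of gene_15414 lay below the others, but it was not called in any comparison, with log2 fold changes of -0.56, 0.17 and 0.73 (edgeR adjusted p = 0.177, 0.628 and 0.0932). The count of gene_15410 per count of gene_15414 was 0.256, 0.823 and 0.792 in CK, 0.373, 0.718 and 0.342 in MHT, and 0.617, 0.946 and 1.02 in SHT. The ratio overlapped between all groups.

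The profiles of the 3 members over the 9 libraries were set side by side as log2 CPM, each centred on its mean, and likeness was measured by the root mean square difference. It was 0.524 between gene_26401 and gene_26402, against 1.96 between gene_26401 and gene_15410 and 1.79 between gene_26402 and gene_15410. Gene_15410 differed from gene_15414 by 0.626. The order of group means was CK, MHT, SHT from low to high for both neighbours and MHT, CK, SHT for gene_15410. Of the steps in these orders, the ranges of libraries overlapped between MHT and SHT for gene_26401 and at both MHT to CK and CK to SHT for gene_15410.

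Of the other 14 exoglucanases, most were not called, and those that were lay mainly on the higher side at 36 °C. In MHT&CK, 1 of them was higher, gene_714, and 1 lower, gene_597, or 7.14% in each direction beside the 3.85% and 4.32% of all unigenes given above. In SHT&CK, 4 were higher and none lower, 28.6% beside 10.8% of all unigenes. In SHT&MHT 1 was higher, 7.14% beside 2.79%, and none lower. In both comparisons with SHT, 0 of the 14 were lower at an unadjusted p under 0.05 in edgeR. With DESeq2, each list or set of unigenes described here with a count of 0 in a direction had 0 there too. The median log2 fold change of the 14 was -0.395 in MHT&CK, 0.426 in SHT&CK and 0.855 in SHT&MHT, where the medians of all unigenes were -0.002, 0.012 and -0.002. All 14 had a fitted value above 0 in SHT&MHT, and 13 of 14 did without MHT replicate 3. Of the 14, 10 had all SHT libraries above all MHT libraries, which held for 15.4% of all unigenes. In SHT&CK 4 lay wholly above CK and 1 wholly below, beside 27.6% and 28.3% of all unigenes, and in MHT&CK 1 above and 4 below, beside 18.4% and 19.1%. The share wholly above in SHT&CK was thus close to that of all unigenes.

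Gene_714, a family 7 glycoside hydrolase, had the same order of groups as the neighbours. It was at 0.879, 1.06 and 1.09 CPM in CK, 1.65, 3.07 and 4.82 in MHT, and 10.3, 7.58 and 10.2 in SHT, with no overlap between groups. Gene_714 was near the lower limit of counting, with 3, 5 and 5 counts in CK and 10, 17 and 24 in MHT. It rose in SHT&CK by a log2 fold change of 3.17 (SE 0.43, edgeR adjusted p = 2.38e-04) and in SHT&MHT by 1.57 (0.35, adjusted p = 0.0165). It also rose in MHT&CK, by 1.59 (0.47, adjusted p = 0.0398). This last call was lost without CK replicate 1, 2 or 3, MHT replicate 2 or 3, or SHT replicate 1 or 3, with values of 1.18 to 1.65, and in a fit of only the compared groups (1.61). In SHT&MHT the call was lost without SHT replicate 1 (1.49) or 3 (1.50) and without MHT replicate 1 (1.25) or 2 (1.56). Gene_715, next in ID number and with the same best match, was at 1.09 ± 0.589 CPM at 25 °C, 1.58 ± 0.243 at 32 °C and 3.50 ± 1.36 at 36 °C (SD, n = 3). It had 6, 4 and 3 counts in CK. It rose in SHT&CK by 1.75 (0.47, adjusted p = 0.0111), a call lost without CK replicate 3 (1.48) or SHT replicate 1 (1.36).

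The other unigenes of the list that rose at 36 °C were gene_330 and gene_1429. The deposited description of gene_330 is a family 7 glycoside hydrolase, whereas the study's supplementary tables name this unigene a methylthioadenosine phosphorylase, so its identity is not settled here. Gene_330 was at 6.82 ± 0.895 CPM at 25 °C, 9.95 ± 3.86 at 32 °C and 17.4 ± 3.78 at 36 °C (SD, n = 3), and its log2 fold change at SHT&CK reached 1.34 (SE 0.31, edgeR adjusted p = 0.00548). Gene_1429 was at 66.5 ± 2.69, 75.9 ± 16.6 and 136 ± 26.7 CPM, with 1.03 in SHT&CK (0.20, adjusted p = 0.00213), which fell under the fold threshold without SHT replicate 1 (0.90) or SHT replicate 3 (0.98). Without SHT replicate 1, only 2 of the 14 were higher in SHT&CK, and with gene_330 left out of the list the count was 3 of 13 and the median 0.385. Gene_597 went from 5.32 ± 0.501 to 2.32 ± 0.920 CPM and so fell in MHT&CK, at -1.18 on the log2 scale (0.33, adjusted p = 0.0315), and was at 4.87 ± 0.170 in SHT. Its call was lost without CK replicate 1, 2 or 3, or MHT replicate 1 or 3, with values of -1.22 to -0.94. The family 6 enzymes, gene_12122 and gene_24770, were not called in any comparison, and gene_24770 had only 1 to 12 counts per library. Gene_12122 passed as higher in SHT&MHT without SHT replicate 2 (1.09). Nor were the other family 7 unigenes, gene_596, gene_683, gene_1428, gene_15414, gene_26080, gene_26081 and gene_26082, although gene_26081 was called lower in MHT&CK (-1.29) without MHT replicate 1 and gene_26080 higher in SHT&CK (1.27) with library totals as the scaling.

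**Figure D2:**
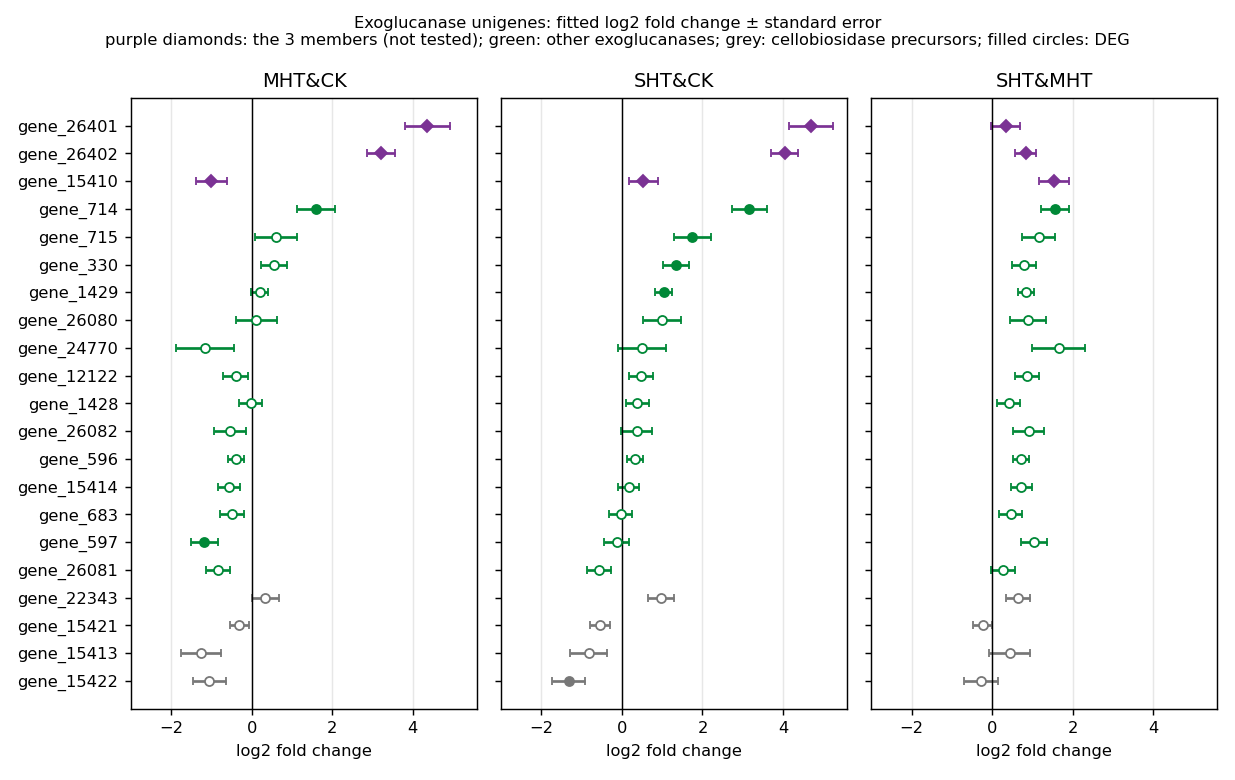
Fitted log2 fold change (points) with its standard error (whiskers) in each comparison for the 3 members (purple diamonds, not tested), 14 other exoglucanases (green) and 4 cellobiosidase precursors (grey), where filled circles are DEGs. The neighbours stand at 3.20 to 4.70 in both comparisons with CK, and all green points lie above 0 in SHT&MHT.

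Within the 17 exoglucanase unigenes, the neighbours held a small part of the counts at 25 °C and a larger one at both higher temperatures. Gene_26401 and gene_26402 together took 1.52%, 1.74% and 1.09% of these counts in CK, 13.1%, 22.7% and 13.4% in MHT, and 13.9%, 20.9% and 11.7% in SHT. MHT and SHT overlapped in this share, and neither overlapped with CK. Gene_15410 took 1.19%, 4.93% and 3.75% in CK, 1.60%, 2.04% and 1.03% in MHT, and 2.54%, 2.62% and 2.80% in SHT, with CK spanning the other groups. With gene_330 left out, the neighbours' share was 1.12% to 1.80% in CK and 12.3% to 23.8% in the heated libraries. These shares rest on 923 to 2911 counts per library, and since they mix unigenes of unknown length they compare libraries and not genes.

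The level of all 17 together differed less between CK and MHT than that of the neighbours. Their CPM added up to 237 ± 29.0 at 25 °C, 243 ± 13.8 at 32 °C and 416 ± 31.3 at 36 °C (SD, n = 3). Without the 3 members it was 263, 205 and 210 in CK, 194, 187 and 217 in MHT, and 373, 294 and 356 in SHT. The sum over the other 14 thus overlapped between CK and MHT, while all SHT libraries were above both.

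**Figure D3:**
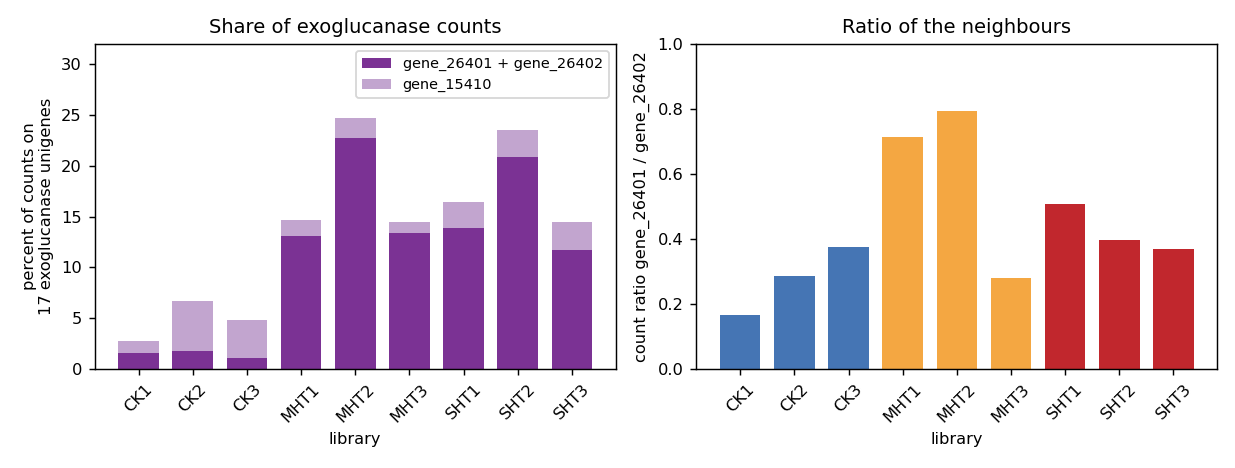
Left, percent of the counts on 17 exoglucanase unigenes that fell on gene_26401 plus gene_26402 (dark) and on gene_15410 (light) in each library, as stacked bars. Right, counts of gene_26401 per count of gene_26402 in each library. The dark share is 1.09% to 1.74% in CK and 11.7% to 22.7% in the heated libraries.

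A further 4 unigenes are described as precursors of cellulose 1,4-beta-cellobiosidase, another name for an exoglucanase. They were added as a list after their values had been seen. None was a DEG in MHT&CK or SHT&MHT, where 2 and 0 were lower at an unadjusted p under 0.05 in edgeR and 0 higher in either. In SHT&CK 1 was lower, 25% of the list beside 10.9% of all unigenes. This was gene_15422, at 9.19 ± 1.38 CPM at 25 °C, 4.40 ± 2.44 at 32 °C and 3.63 ± 1.58 at 36 °C (SD, n = 3), with a log2 fold change of -1.33 (SE 0.41, edgeR adjusted p = 0.0216). The call was lost without CK replicate 1 (-1.31), CK replicate 3 (-1.23) or SHT replicate 2 (-1.04), and gene_15422 was also called lower in MHT&CK without MHT replicate 2 (-1.61). Gene_15422, gene_15421 and gene_15413 lie close to gene_15410 in ID number, and all 3 had their highest mean in CK. The remaining precursor, gene_22343, had its lowest mean in CK and its highest in SHT, at 3.74 ± 1.08 CPM at 25 °C, 4.62 ± 0.797 at 32 °C and 7.26 ± 1.78 at 36 °C (SD, n = 3). Its log2 fold change in SHT&CK was 0.98 (SE 0.32, adjusted p = 0.0283), under the fold threshold, and it was called higher without CK replicate 1 (1.21), without SHT replicate 3 (1.14) and with library totals as the scaling (1.25).

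The unigenes listed as enzymes that work beside exoglucanases on cellulose were few and changed in different directions. Several of them are described only by a glycoside hydrolase family, which does not fix their role. Of 4 unigenes listed as endoglucanases, 1 was higher in SHT&CK and in SHT&MHT (25% in each, beside 10.8% and 2.79% of all unigenes). This was gene_331, next in ID number to gene_330 and described in the deposited table as a cellulase, while the study's supplementary tables give it, too, as a methylthioadenosine phosphorylase. It was at 11.0 ± 2.34 CPM at 25 °C, 20.5 ± 2.10 at 32 °C and 43.9 ± 5.71 at 36 °C (SD, n = 3). It rose by 1.98 on the log2 scale in SHT&CK (SE 0.21, edgeR adjusted p = 7.06e-05) and 1.10 in SHT&MHT (0.20, adjusted p = 0.00775). In MHT&CK gene_331 was at 0.89 (adjusted p = 0.0172), under the fold threshold, and it passed at 1.04 without CK replicate 2 and at 1.02 with library totals as the scaling. Of 10 unigenes listed as beta-glucosidases and tested, 1 fell in both comparisons with CK (10% in each, beside 4.32% and 10.9% of all unigenes). This was gene_12726, which went from 172 ± 47.9 CPM to 41.5 ± 9.47 at 32 °C and 45.3 ± 3.11 at 36 °C. Its log2 fold changes were -2.05 (0.24, adjusted p = 3.32e-04) and -1.92 (0.24, adjusted p = 1.56e-04). In SHT&CK, 2 others of this list were higher (20%, beside 10.8%), gene_6604 at 1.45 (edgeR adjusted p = 0.0112) and gene_18392 at 1.06 (adjusted p = 0.0329). Both are described, like gene_12726, only as family 3 glycoside hydrolases. The call of gene_18392 was lost with DESeq2 (1.06), with the replicate block (1.06) and without any 1 of CK replicates 1 to 3 or SHT replicates 1 and 3 (0.92 to 1.13). Gene_18392 was also called higher in SHT&MHT with library totals (1.22) and without SHT replicate 2 (1.25).

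The single protein with a cellulose-binding module of family 1, gene_3939, fell in MHT&CK from 5.18 ± 0.850 to 1.48 ± 0.680 CPM, or -1.77 on the log2 scale (SE 0.38, edgeR adjusted p = 0.00929), and was at 2.76 ± 0.525 in SHT. The single family 61 protein tested, gene_19662, of the lytic monooxygenases, fell in SHT&CK, at -1.17 on the log2 scale (0.42, adjusted p = 0.0412). That call was lost with DESeq2 (-1.18), with library totals (-0.91), without the filter (-1.17), with only the compared groups (-1.15) and without CK replicate 1 or 2, MHT replicate 1, or SHT replicate 1 or 3 (-1.17 to -0.90). Over the 30 tested unigenes listed as cellulose-degrading that are not members, 1 was higher and 3 lower in MHT&CK (3.33% and 10.0%, beside 3.85% and 4.32% of all unigenes). In SHT&CK 7 were higher and 2 lower (23.3% and 6.67%, beside 10.8% and 10.9%). In SHT&MHT 2 were higher (6.67%, beside 2.79%) and none lower, with 1 lower at an unadjusted p under 0.05 in edgeR. The median log2 fold changes of the 30 were -0.167, 0.276 and 0.612. Without SHT replicate 1 the 7 became 4, and with gene_330 and gene_331 left out the counts of higher unigenes were 1, 5 and 1 of 28 in the same order. The 2 lower in SHT&CK became 1 wherever the call of gene_19662 was lost.

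Unigenes listed as enzymes for the other polymers of the plant cell wall were also called in both directions. Of 11 hemicellulases tested, 1 was higher and 1 lower in MHT&CK (9.09% each, beside 3.85% and 4.32% of all unigenes). In SHT&CK 3 were higher and 3 lower (27.3% each, beside 10.8% and 10.9%), and in SHT&MHT 2 were higher (18.2%, beside 2.79%). The latter became 1 with RLE factors, with only the compared groups and without CK replicate 1, MHT replicate 1 or 2, or SHT replicate 2 or 3. The lower hemicellulases in MHT&CK became 2 without CK replicate 2 or MHT replicate 3, and without the filter on zero counts 5 were lower in SHT&CK and 2 in SHT&MHT. Gene_6625, of the esterase family 15 that cuts links between lignin and hemicellulose, was at 0.482 ± 0.0901 CPM at 25 °C, 2.32 ± 0.499 at 32 °C and 3.65 ± 1.09 at 36 °C (SD, n = 3). It had only 2 counts in each CK library. It rose by 2.23 on the log2 scale in MHT&CK (edgeR adjusted p = 0.0129), a call lost without CK replicate 3 (2.17), and by 2.90 in SHT&CK (adjusted p = 8.32e-04). Gene_14903, an arabinofuranosidase that removes side chains, fell from 32.3 ± 7.26 CPM to 11.2 ± 0.361 at 32 °C and 9.53 ± 1.25 at 36 °C, with log2 values of -1.52 (adjusted p = 0.00121) and -1.76 (adjusted p = 1.69e-04).

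Of 18 unigenes listed as pectinases and tested, 2 were higher and 1 lower in MHT&CK (11.1% and 5.56%, beside 3.85% and 4.32%). In SHT&CK 4 were higher and 2 lower (22.2% and 11.1%, beside 10.8% and 10.9%). In SHT&MHT 1 was called in each direction (5.56%, beside 2.79% and 2.87%). Few of these counts were stable. The 2 lower in SHT&CK, gene_4623 and gene_3875, became 0 without CK replicate 1 (-1.05 and -0.99), without SHT replicate 3 (-1.39 and -0.90) and with library totals (-1.18 and -0.85), and 1 with the replicate block, with only the compared groups and without CK replicate 2, MHT replicate 2 or SHT replicate 1. The 4 higher became 1 without CK replicate 2 and 2 without CK replicate 3 or SHT replicate 2. The 2 higher in MHT&CK became 1 without CK replicate 2 or 3, or MHT replicate 1 or 2. Both counts in SHT&MHT were 0 without MHT replicate 1 or 2 or SHT replicate 3 and 2 without MHT replicate 3, and that of lower pectinases was also 0 without SHT replicate 1. Gene_13958, of the polysaccharide lyase family 14, was at 5.55 ± 1.15, 6.29 ± 2.24 and 17.7 ± 4.62 CPM and rose in SHT&CK by 1.68 (edgeR adjusted p = 0.00159). Gene_4621, of the polysaccharide lyase family 8 like gene_4623, was higher in MHT&CK (1.39, edgeR adjusted p = 0.00479) and in SHT&CK (1.06, adjusted p = 0.00774). The latter call was lost without CK replicate 2 (0.85) or SHT replicate 2 (0.97). Gene_13958, gene_4623, gene_4621 and gene_3875 are described only by enzyme family, which does not fix pectin as their substrate. The counts of this list may thus include enzymes of other polymers.

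Of 19 unigenes listed as starch enzymes and tested, none was called in MHT&CK and none was higher in any comparison. In SHT&CK 3 were lower, and in SHT&MHT 1 was lower (5.26%, beside 2.87% of all unigenes). At an unadjusted p under 0.05 in edgeR, 1 was lower in MHT&CK, and 0, 3 and 2 were higher in the 3 comparisons in this order. The 3 lower are 15.8% of the list, beside 10.9% of all unigenes, and they became 1 with library totals as the scaling. They include gene_19707, described with a glycosyltransferase domain beside a glycoside hydrolase domain, so a role on starch is not fixed for it. The others, gene_20293 and gene_20291, are described only as family 31 glycoside hydrolases, which does not fix that role either. The call of gene_19707 in SHT&CK was lost without CK replicate 1 (-0.93) or 3 (-0.92), or SHT replicate 2 (-0.79) or 3 (-1.10). The 1 lower in SHT&MHT became 2 with DESeq2 and without MHT replicate 2 or SHT replicate 2, and 3 without MHT replicate 3, while 1 was higher in SHT&CK without CK replicate 3 or with library totals. The largest of these changes was that of gene_20293, a family 31 glycoside hydrolase, which fell from 63.2 ± 9.38 CPM in CK to 20.1 ± 4.36 in SHT (SD, n = 3), a log2 fold change of -1.65 (edgeR adjusted p = 1.75e-04). Of 5 sugar transporters tested, 1 was higher and 1 lower in SHT&CK (20% each, beside 10.8% and 10.9%), and 1 was higher in SHT&MHT (20%, beside 2.79%). The hexose transporter gene_16414 rose in SHT&CK by 2.66 (edgeR adjusted p = 0.00121) and in SHT&MHT by 2.35 (adjusted p = 0.00882), while gene_18020 fell in SHT&CK, at -1.35 (adjusted p = 0.00332). The 1 unigene listed as a regulator of carbon catabolite repression was not called, with log2 fold changes of 0.14, -0.49 and -0.63. It was lower at an unadjusted p under 0.05 in edgeR in SHT&CK and in SHT&MHT.

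**Figure D4:**
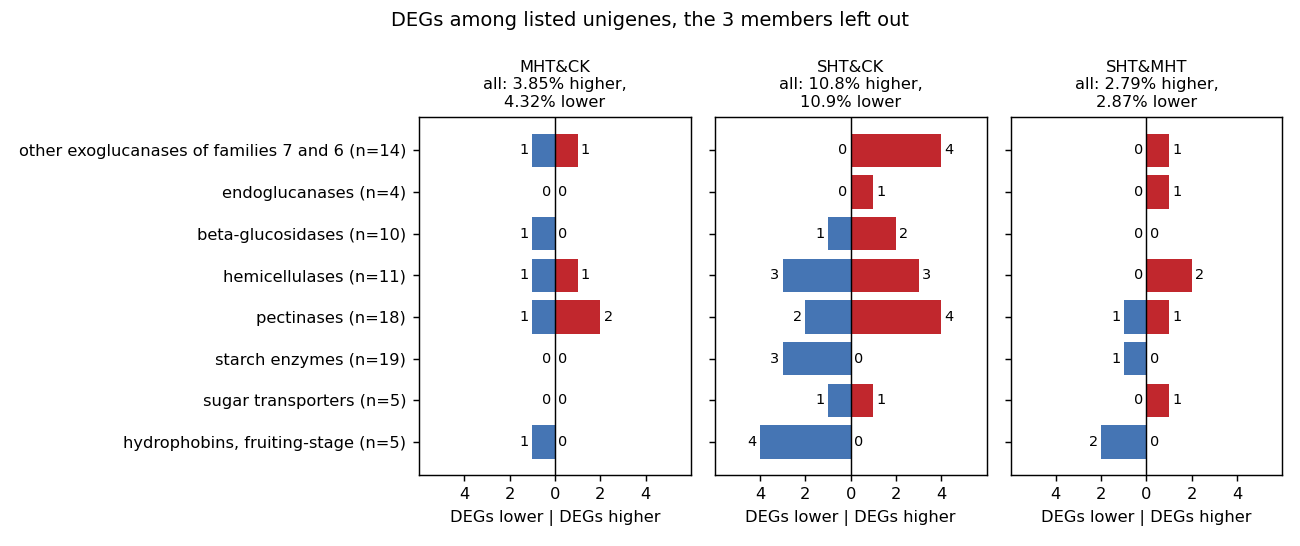
Number of DEGs higher (red, to the right) and lower (blue, to the left) in each comparison among 8 lists of unigenes, with the number tested beside each list name and the percent of all unigenes called above each panel. The other exoglucanases have 4 higher and 0 lower in SHT&CK, and the starch enzymes have 0 higher and 3 lower.

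Markers of aerial and fruiting-stage mycelium also differed between the groups. The 6 unigenes listed as hydrophobins, which coat aerial hyphae, and as proteins of the fruiting stage had a summed level of 1699 to 2530 CPM in CK, 828 to 1158 in MHT and 129 to 301 in SHT, and none was at 0 in all libraries. Most of this sum came from gene_3547, described as a pleurotolysin pore and not a hydrophobin, and from gene_22549. Gene_3547 was at 1528 ± 366, 629 ± 64.7 and 100 ± 84.1 CPM in CK, MHT and SHT (SD, n = 3). Its log2 fold change in SHT&CK was -3.93 (edgeR adjusted p = 3.11e-04). Gene_22549 was at 588.5 ± 86.5, 323 ± 117 and 86.5 ± 9.07 CPM. Of the 5 tested, 4 were lower in SHT&CK (80%, beside 10.9% of all unigenes), 1 in MHT&CK (20%, beside 4.32%) and 2 in SHT&MHT (40%, beside 2.87%). In each comparison 1 of the 5 had a fitted value above 0. The 4 became 2 with library totals, with the replicate block and without CK replicate 2 or 3 or any SHT replicate, as gene_6238 and gene_8573 lost their calls. The 1 in MHT&CK became 2 with DESeq2, with only the compared groups and without MHT replicate 3 or SHT replicate 2 or 3. Hydrophobin 3, gene_22549, fell at 36 °C relative to CK, at -2.77 on the log2 scale (edgeR adjusted p = 3.19e-05). The part of these differences in the levels of the exoglucanases was not tested.

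In SHT&CK, 1 of the 6 unigenes nearest in ID number to gene_26401 and gene_26402 was higher, and 2 of the 6 nearest to gene_15410 were lower. Among all unigenes, 10.8% were higher and 10.9% lower in that comparison. With only 6 unigenes in each set, their shares are coarse. Of the 6 nearest to gene_26401 and gene_26402, none was a DEG in MHT&CK, with 2 higher and 1 lower at an unadjusted p under 0.05 in edgeR, or in SHT&MHT, with 0 in both directions. Only gene_26398, a hypothetical protein, was one in SHT&CK, at 84.8 ± 4.50 CPM in CK and 171 ± 11.0 in SHT (SD, n = 3), a log2 fold change of 1.01 (edgeR adjusted p = 0.00105). It was under the fold threshold without CK replicate 1 (0.96), SHT replicate 1 (0.96) or SHT replicate 2 (0.99), and gene_26405 was called lower there without SHT replicate 1 (-1.08). Of the 6 nearest to gene_15410, the hypothetical proteins gene_15407 and gene_15411 were lower in SHT&CK, with -1.17 (adjusted p = 0.0136) and -1.11 (adjusted p = 0.00215), and none was called in the other comparisons, where 2 were lower and 0 higher in each at an unadjusted p under 0.05. The call of gene_15407 was lost without SHT replicate 2 (-0.97) or SHT replicate 3 (-1.16), and that of gene_15411 without CK replicate 1 (-0.98). Both were lost with library totals as the scaling (-0.90 and -0.84), and gene_15407 was called lower in SHT&MHT without MHT replicate 3 (-1.17). Whether ID neighbours are neighbours in the genome was not examined here.

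Among 3025 tested unigenes with an informative description and a mean scaled count of at least 10, the profiles nearest to each member were sought over the 9 libraries. Nearest to gene_26401 was gene_24017, a protein with a sugar-binding module of family 13, at a root mean square difference of 0.860 in log2 CPM. Gene_24017 had 1, 8 and 4 counts in CK and 51 to 138 in the heated libraries. After it came gene_14393, a phenylalanine ammonia lyase (1.04), gene_7345, a heme peroxidase (1.06), gene_1307, described only as a glycoside hydrolase (1.08), and gene_12831, a cullin-associated protein (1.09). Gene_26401 and gene_26402 were nearer to each other, at 0.524, than to any of these.

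For gene_26402 the nearest were gene_3689, a protein of thiamine metabolism (0.796), gene_24017 (0.800), gene_1307 (0.807), gene_14199, a ketopantoate hydroxymethyltransferase (0.821), and gene_5791, an alpha/beta-hydrolase (0.833). Gene_24017 and gene_1307 were thus near to both neighbours. For gene_15410 they were gene_6422, a cytochrome P450 (0.411), gene_5073 and gene_5075, both described as DNA repair proteins (0.433 and 0.460), gene_9557, a P-loop hydrolase (0.434), and gene_4979, a Dicer-like protein (0.454). Gene_6422 was at 309 ± 76.9 CPM at 25 °C, 169 ± 15.3 at 32 °C and 317 ± 26.9 at 36 °C (SD, n = 3). These unigenes were picked for their likeness, so their values are a description.

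**Figure D5:**
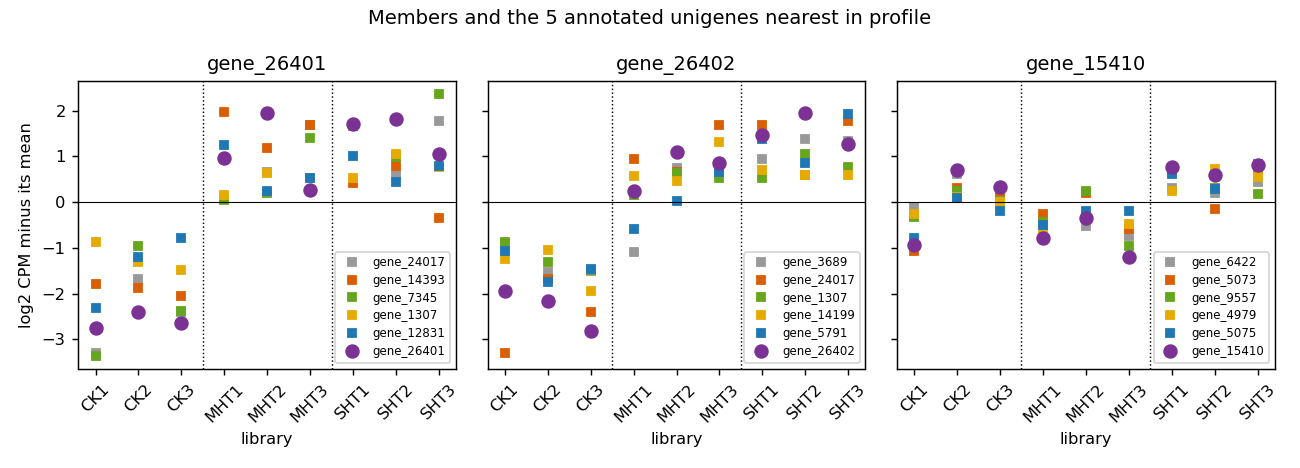
Log2 CPM minus its mean over the 9 libraries for each member (purple circles) and for the 5 annotated unigenes nearest to it in profile (squares), by library, with dotted lines between CK, MHT and SHT. Gene_26401 and gene_26402 and their nearest unigenes are below their means in all CK libraries, while gene_15410 is below its mean in CK replicate 1 and in all MHT libraries.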

How the data were processed

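Per the labels and the methods of the study, the authors cleaned reads (fastp), took out rRNA (Bowtie2), mapped what was left (HISAT2) and obtained a count for each unigene (StringTie). Tool versions and strand use were not given in the sources used here. In the deposited table are whole-number counts, without normalization, and the description of each unigene's best protein match. Unigenes with a 0 in any of the 9 libraries were set aside (935), which left 13018. The main test was edgeR 4.0.16 in R 4.3.3, a robust quasi-likelihood fit on TMM-scaled counts with group as the only term and Benjamini-Hochberg adjustment over all 13018. The standard error is the absolute log2 fold change divided by the root of F. The script was tested on simulated data. Log2 CPM in profiles used a prior count of 2.

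The members and lists were chosen with earlier results of these data known. Lists were matched by words in the descriptions. The rule for names took the members, every listed exoglucanase, at most 4 DEGs with the largest change per other list, 3 unigenes on each side in ID number and the 5 nearest profiles, and not every one of these is printed. Alternatives were DESeq2 1.42.0, other scalings, filters and groups in the fit, a replicate block, libraries left out, the neighbours summed and lists without gene_330 and gene_331. No genome or gene lengths were used here, so levels are not compared between genes.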

Additional observations from a re-analysis of the deposited data

How the results depend on the processing

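No called value of a named unigene and no member's value turned its sign under any alternative. Of the 3307 recomputed values of named unigenes, 60 had the opposite sign, all of them of unigenes not called in that comparison, such as gene_24770 in MHT&CK (-1.64 to 0.11). The log2 fold changes of the members stayed within the spread of replicates in 157 of 159 recomputed values. The exceptions were gene_26401 when its neighbour was summed with it, at 3.55 in MHT&CK and 4.21 in SHT&CK. A member with a wide spread passes this measure easily, so it does not show that a value is stable. With a library left out, gene_26401 in SHT&MHT ranged from 0.03 to 0.92 and gene_15410 in SHT&CK from 0.20 to 0.89 within it. Counting depth is the main limit for gene_26401, which had 2 to 4 counts in each CK library, and no value here tells how reads were divided between unigenes with the same best match. Gene_714, gene_715 and gene_6625 also had only 2 to 6 counts in each CK library. With a prior count of 0.5 in place of 2, 3 of the 5 nearest profiles of gene_26401, 1 of 5 of gene_26402 and 4 of 5 of gene_15410 were the same.

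With library totals alone as the scaling, all medians shifted, to 0.138 in MHT&CK, 0.277 in SHT&CK and 0.125 in SHT&MHT. Higher DEGs were then 2284 and lower DEGs 850 in SHT&CK, and higher DEGs 595 in SHT&MHT. The cellulose-degrading unigenes outside the members were then 2 higher in MHT&CK, 1 lower in SHT&CK and 4 higher in SHT&MHT, and the exoglucanases outside the members 2 higher in SHT&MHT. In a fit of only the compared groups, no unigene of either list was higher in MHT&CK, 0 exoglucanases were lower there, and 1 cellulose-degrading unigene was lower in SHT&CK, as it was with DESeq2 and without the filter. Adding the 4 cellobiosidase precursors, an alternative chosen after seeing the data, changed no count by more than 1.5 times. Leaving out gene_330 and gene_331, also chosen after seeing the data, took the cellulose-degrading unigenes higher in SHT&MHT to 1.

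Replicates with the same number in different groups did not deviate together in every pair. Correlations were from -0.227 to 0.442 over 9 pairs, against -0.47 to 0.257 over 18 pairs with different numbers. The highest, 0.442, was between MHT replicate 1 and SHT replicate 1. The labels do not say what the number stands for, and these values cannot decide whether same-numbered samples share a batch. With the number as a replicate block, DEGs numbered 990 in MHT&CK (1063 without the block), 2767 in SHT&CK (2821) and 641 in SHT&MHT (736). Under the block 0 exoglucanases and 0 other cellulose-degrading unigenes were higher in MHT&CK, 0 exoglucanases were lower there, and 1 cellulose-degrading unigene was lower in SHT&CK, while the call of gene_18392 as higher there was lost.

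With each library left out in turn, higher DEGs were 318 to 538 in MHT&CK, the lowest without CK replicate 3, and 117 to 650 in SHT&MHT, where lower DEGs were 159 to 778. Among cellulose-degrading unigenes, 0 to 1 were higher in MHT&CK, 4 to 7 higher and 1 to 3 lower in SHT&CK, and 1 to 4 higher in SHT&MHT. Among exoglucanases, 0 to 1 were higher and 0 to 1 lower in MHT&CK, 2 to 4 higher in SHT&CK and 0 to 2 higher in SHT&MHT. Of the recomputed values of named unigenes, 3159 kept their side of the threshold, 119 lost a call and 29 gained one, and 89 of the losses came from leaving out a library.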
